A study of Homo sapiens with 34 samples.

Results

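The clustered protocadherins are a family of cell surface adhesion genes that stand side by side on the long arm of human chromosome 5. Members were taken by symbol alone, as the protein-coding genes of that chromosome named PCDHA, PCDHB or PCDHG with a number. This gave 53 of the 19970 protein-coding genes in the GENCODE annotation of hg38, namely 13 alpha, 16 beta, 12 gamma A, 7 gamma B and 5 C-type genes (PCDHAC1, PCDHAC2, PCDHGC3, PCDHGC4 and PCDHGC5). They lie within 726.8 kb, at chr5:140786136-141512977.

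Each alpha and gamma gene has a large variable first exon with its own promoter, which is spliced to 3 constant exons shared by its subcluster. Beta genes have a single variable exon and no constant exon. In neurons, every cell switches on a small, partly random choice of the variable promoters, and the resulting mix of protocadherins lets neurites of one cell recognise and avoid each other. The choice involves the DNA-binding protein CTCF, which occupies a conserved sequence element just before most variable starts, the cohesin complex that loops promoters to distant enhancers, and DNA methylation, which keeps the other promoters silent. C-type promoters differ in that most neurons use them.

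The marks had been mapped by chromatin immunoprecipitation followed by sequencing (ChIP-seq) in KELLY, a MYCN-amplified cell line established from a human neuroblastoma. Controls as well as treated cells carried a short hairpin RNA that targets RUNX1T1 and is switched on by doxycycline, and received DMSO, the solvent, or doxycycline for 72 h. For each of 5 histone marks there were 3 libraries per treatment, and 4 input libraries entered only through peak calling. A single line was used and no library of doxycycline without the hairpin was analysed here, so an effect of the drug and one of the knockdown cannot be told apart.

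Peaks were called at a depth of 71.9 to 81.1 M reads for DMSO and of 57.0 to 63.4 M for doxycycline, so calling depth and treatment cannot be told apart either. Of 8 markers of adrenergic neuroblastoma such as DBH and TH, 8 carried H3K4me3 and H3K27ac in 3 of 3 libraries of both treatments. Of 8 markers of blood cells, liver, muscle, epithelium and endothelium, 0 carried H3K27ac in 3 of 3 libraries of either treatment, and MYOD1 was the only one with H3K4me3 in 3 of 3 DMSO libraries.

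A promoter was the 1 kb on either side of every annotated start of a gene, and a gene was said to carry a mark in a treatment where all 3 libraries had a peak there. H3K4me3 marks active or poised promoters, H3K4me2 promoters and enhancers, H3K4me1 mainly enhancers, H3K27ac active elements, and H3K27me3 repression by Polycomb. Peak strength is given as fold enrichment, the ratio of ChIP signal to the local input level that the peak caller assigned to the strongest promoter peak. It was taken at the summit for H3K4me2 and H3K4me3 and over a wider region for the other marks, so it was not compared between marks.

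The sequence that CTCF reads before the variable starts was looked up first, since most variable promoters share it. RefSeq promoter sequences (GRCh38.p14, the build of hg38; 250 bases before to 50 after a start) were found for 47 of the 53 members. No entry was given for PCDHA3, PCDHA13, PCDHB6, PCDHB11, PCDHGA12 and PCDHGC5. The lines that follow are 30-base stretches of the sense strand with the core letters TGNCGCT in capitals. They are shown for promoters with and without H3K4me3, beginning with PCDHA1 (H3K4me3 in DMSO alone), PCDHA2 (in all 6 libraries) and PCDHA4 (in no library). Of the last 3 shown, PCDHGA5 had H3K4me3 in no library and PCDHGB4 and PCDHGB5 both had it in all 6.
PCDHA1 (chr5:140786085-140786114): cattggccacatgaTGTCGCTgtacaccac
PCDHA2 (chr5:140794780-140794809): ttttagccacatgaTGTCGCTgtccaccat
PCDHA4 (chr5:140806978-140807007): ttggagccacatgaTGTCGCTctttaccac
PCDHB2 (chr5:141094543-141094572): gaagagacgcggggTGGCGCTgcagcctta
PCDHB4 (chr5:141121722-141121751): atcaagacgcagggTGGCGCTgcaggctaa
PCDHB12 (chr5:141208642-141208671): gtggagacgcgtggTGGCGCTgcaggataa
PCDHB13 (chr5:141213864-141213893): gtgaggacgcgtggTGGCGCTgcaggataa
PCDHGA5 (chr5:141364106-141364135): gttaggactctgagTGTCGCTgttgaccaa
PCDHGB4 (chr5:141387643-141387672): caaagtggagagctTGGCGCTccagatctc
PCDHGB5 (chr5:141397889-141397918): caaagtgcagagctTGGCGCTccagatctc

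Promoters with and without H3K4me3 shared these letters. The windows of PCDHA2 (marked) and PCDHA4 (unmarked) agreed at 24 of 30 positions, and those of PCDHB13 (marked in DMSO) and PCDHB12 (no H3K4me3 in any library) at 28 of 30. PCDHB2, which had the strongest H3K4me3 of all members, and PCDHB4, which had no peak of any mark, agreed at 23 of 30. PCDHB10 (marked) and PCDHB3 (no peak of any mark) agreed at 20 of 30, the fewest of the pairs compared. Pairs of like state agreed at 25 (PCDHA1 and PCDHA2, both marked in DMSO), 29 (PCDHGB4 and PCDHGB5, both marked) and 27 (PCDHGA3 and PCDHGA5, both unmarked). Where found, the core began at a median of 58 bases before the RefSeq start.

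Over all members with a promoter sequence, TGNCGCT was present on either strand in 32 of 47 (68.1%), against 13.0% of 27305 genes in the RefSeq table. It was present in 16 of 20 members with H3K4me3 in at least 1 library and in 16 of 27 with none. By subcluster it was found in 10 of 11 alpha, 13 of 14 beta, 3 of 11 gamma A, 4 of 7 gamma B and 2 of 4 C-type promoters. The letters GGCGCT, which the TGTCGCT of the alpha promoters lacks, was found in 23 of 47 members (48.9%, against 24.8% of all genes), of which 13 were beta genes and 0 alpha genes. It was held by 14 of 20 members with H3K4me3 and by 9 of 27 without. The latter included every beta gene without H3K4me3, namely PCDHB3, PCDHB4, PCDHB7 and PCDHB12. GGCGCT preceded by AG and any 2 bases was found in 2 of 47 (4.26%, against 2.89%), while the looser GNCGCT, which contains the letters of TGNCGCT, was found in 45 of 47 (95.7%, against 48.0%). The patterns TGNCGCT and GNCGCT were chosen after the sequences had been seen, and a match is a run of letters and not a measured CTCF site.

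Base composition set the C-type promoters apart from the others. Their GC content was 59.0 to 66.0% (4 promoters), whereas it was 33.7 to 40.3% in alpha, 33.3 to 46.3% in beta, 32.3 to 44.3% in gamma A and 43.0 to 51.3% in gamma B promoters. The median over all genes in the table was 58.3%. The CpG ratio, observed over expected CpG dinucleotides, had a median of 0.567 in the 20 members with H3K4me3 and 0.635 in the 27 without, and of 0.580 over all genes.

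Which promoters carried a mark was asked next. In DMSO, 22 of 53 members (41.5%) carried H3K4me3, against 72.6% of all protein-coding genes. In doxycycline it was 18 of 53 (34.0%), against 72.3%. Without replicate 3 the H3K4me3 counts were 22 in DMSO and 21 in doxycycline, so the difference between 22 and 18 rested largely on replicate 3. H3K4me2 was carried by 6 members in DMSO (72.3% of all genes) and by 11 in doxycycline (73.8%). H3K27ac was carried by 8 and 7 members (65.8% and 65.2% of all genes). H3K4me1 was carried by 3 in each treatment (66.3% and 66.1% of all genes), and H3K27me3 by 3 and 2 (20.9% and 23.2% of all genes). For every mark, each of the 30 libraries had a peak at a smaller share of members than of all genes. No p-value is given for these counts, because members share a locus and are not independent.

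**Figure D1:**
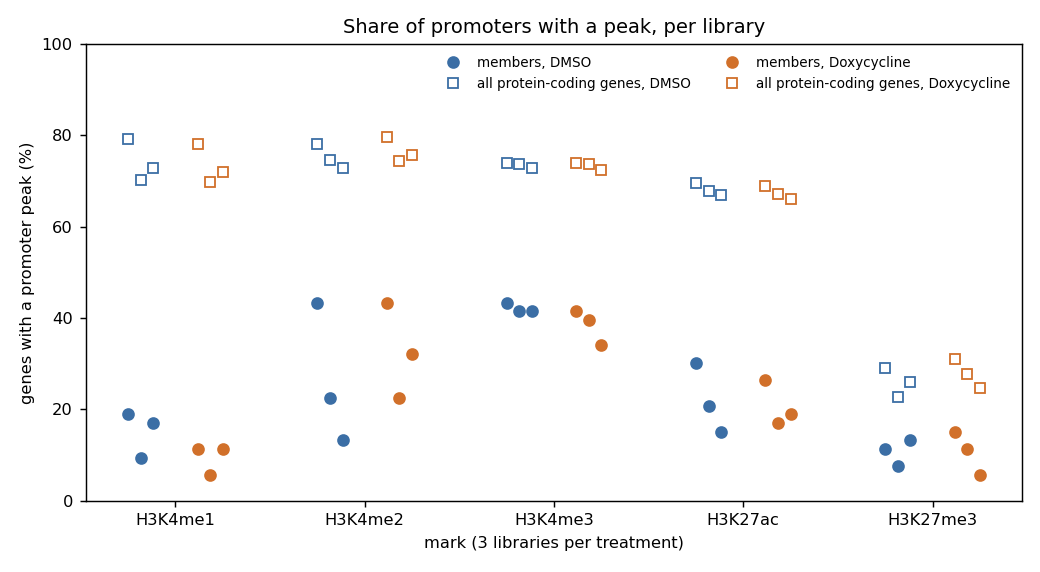
Percent of the 53 members (filled circles) and of all 19970 protein-coding genes (open squares) with a peak within 1 kb of a start, on a linear axis for each library of each mark, blue for DMSO and orange for doxycycline. In every library the filled circle lies below the open square of the same colour, for H3K4me3 between 34.0 and 43.4% against 72.4 to 74.0%.

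The map of the cluster shows where those promoters were. H3K4me3 was found at 3 of 13 alpha promoters in at least 1 of the 6 libraries, and these were the first in the row, PCDHA1, PCDHA2 and PCDHA3. The 10 promoters from PCDHA4 to PCDHA13 had no H3K4me3 peak, and 8 of these 10 had no peak of any mark in any of the 30 lists. The exceptions were a single H3K27me3 peak at PCDHA5 and a single H3K4me1 peak at PCDHA8.

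Among beta promoters, 12 of 16 had H3K4me3 in at least 1 library, and 8 of 16 in all 6. PCDHB3, PCDHB4, PCDHB7 and PCDHB12 had no H3K4me3 peak, although PCDHB7 lay within 1 kb of H3K27me3 in 2 of 3 doxycycline libraries (2.22 and 2.41-fold) and PCDHB12 in 1 DMSO library. The gamma A and gamma B genes alternate along the chromosome, yet H3K4me3 was found at 4 of 7 gamma B promoters (PCDHGB1, PCDHGB2, PCDHGB4 and PCDHGB5) and at 1 of 12 gamma A promoters (PCDHGA1). Of the C-type genes, PCDHAC1, PCDHAC2 and PCDHGC3 had it in all 6 libraries, and PCDHGC4 and PCDHGC5 in none. In total, 20 of 53 members had no peak in any list, namely 8 alpha, 2 beta, 7 gamma A, 2 gamma B and 1 C-type gene.

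**Figure D2:**
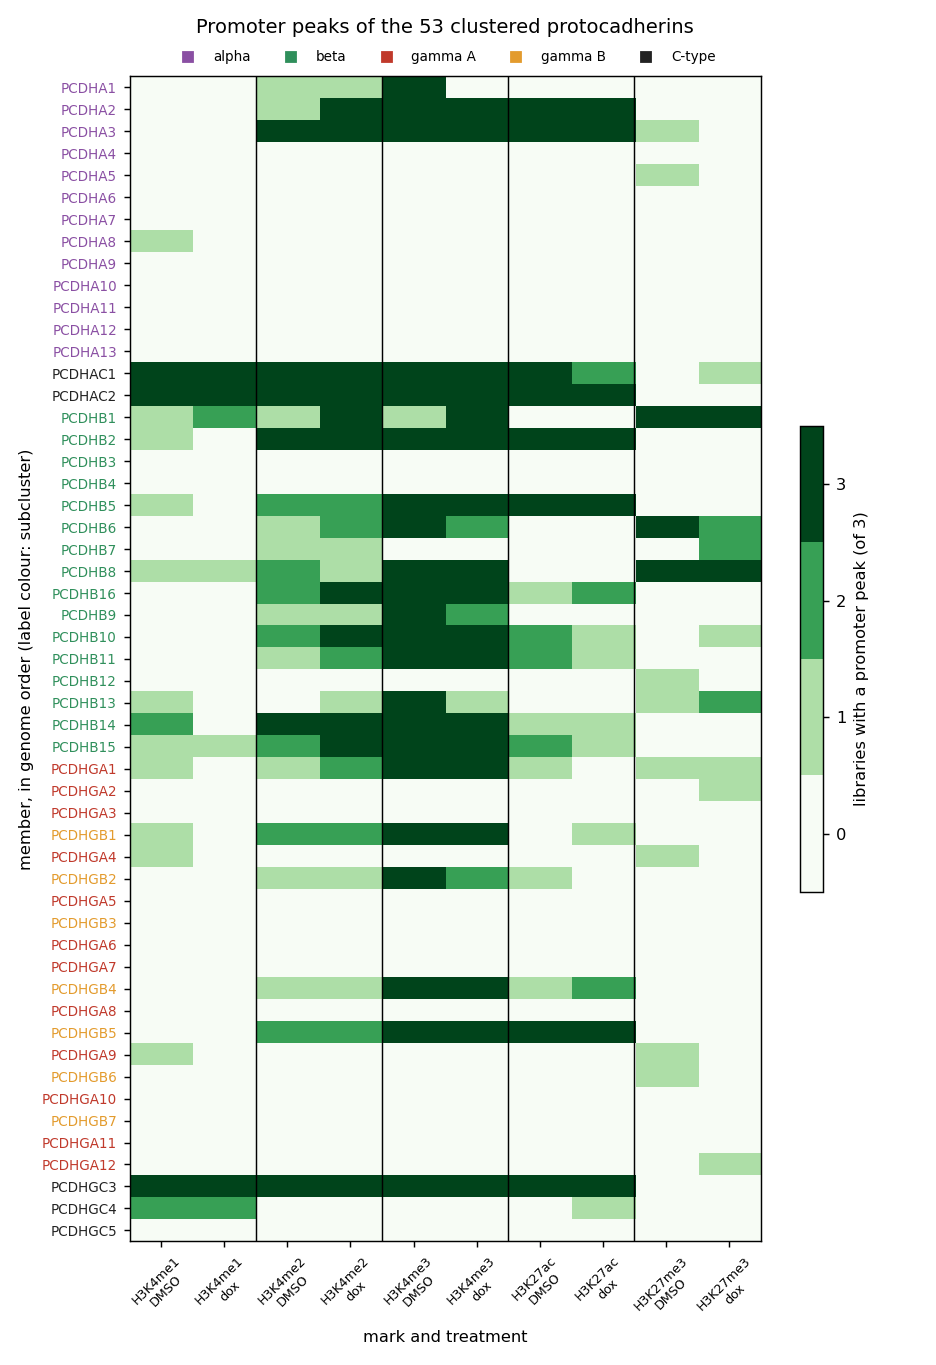
Number of libraries (0 to 3, from white to dark green) with a peak within 1 kb of a start, for each member in genome order and each mark and treatment, with labels coloured by subcluster. Dark cells in the H3K4me3 columns cover 22 members in DMSO and 18 in doxycycline, and the rows from PCDHA4 to PCDHA13 are almost empty.

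Near-identical copies could lower the number of reads placed at a promoter, because alignments of low mapping quality had been removed. Within 1 kb of the canonical start, 37 of 53 members had no 101-base stretch that recurs elsewhere in the cluster, and the highest share of recurring stretches was 28.6%, at PCDHB8 and PCDHB13. Among the 20 members with no peak in any list, 14 had no such stretch. Only exact repeats within the cluster were counted, so copies with mismatches or elsewhere in the genome were not covered. For PCDHGB4 and PCDHGB5 the share was 20.6% each and for PCDHB9 and PCDHB10 11.9% each. It was 20.3% for PCDHA7 and 20.4% for PCDHA9, which had no peak in any list, so the values of these 8 genes are less certain.

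Among members, the strongest H3K4me3 was measured at PCDHB2, a beta gene near the start of its row. Its fold enrichment was 40.4, 35.6 and 23.8 in DMSO replicates 1, 2 and 3 and 36.8, 35.1 and 19.5 in the same order in doxycycline. The ranges overlapped, and in both treatments replicate 3 was the lowest. This was the only member whose median came near the middle of all marked promoters, at the 49.7th percentile of the gene promoters with a peak in the same list.

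Of the alpha genes, PCDHA3 had 21.7, 16.2 and 16.7-fold enrichment in DMSO and 33.0, 21.8 and 17.3 in doxycycline. PCDHA2 had 14.6, 24.1 and 8.99 in DMSO and 32.9, 23.1 and 14.5 in doxycycline. In both genes the highest value came from doxycycline replicate 1, and the treatments overlapped. PCDHB5 had 16.2, 19.6 and 14.0 in DMSO and 23.3, 17.5 and 13.8 in doxycycline, which again overlapped.

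Lower in the order, PCDHB10 had 19.5, 15.4 and 10.1 in DMSO and 13.5, 16.6 and 6.79 in doxycycline. PCDHB14 had 14.4, 12.0 and 11.7, then 18.3, 10.1 and 10.4. PCDHB11 had 12.0, 11.2 and 5.13, then 12.2, 10.8 and 6.31. The ranges of these 3 beta genes overlapped in each treatment, although PCDHB10 was above PCDHB11 in each of the 6 libraries.

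For PCDHB15 the values were 11.0, 10.6 and 8.54 in DMSO and 13.7, 9.39 and 7.44 in doxycycline. At PCDHGB5, the most strongly marked gamma B promoter, they were 12.8, 9.34 and 4.87 in DMSO and 13.6, 7.71 and 10.4 in doxycycline. The other 11 non-C-type members with H3K4me3 had medians between 3.89 (PCDHB8) and 8.07-fold (PCDHB16).

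Compared with other marked genes, these peaks were low and short. Per library, the median fold enrichment of the members with a peak was 6.42 to 12.3, against 21.4 to 38.2 for all genes with a peak. Their median peak length was 671 to 821 bp, against 1895 to 2253 bp. Of the 23 members, 22 had a median fold below the 25th percentile of marked promoters. The summit lay downstream of the canonical start in 22 of 23 members, at a median of 221 bp, within the variable exon. PCDHAC2 was the exception, with its summit 265 bp before the start.

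**Figure D3:**
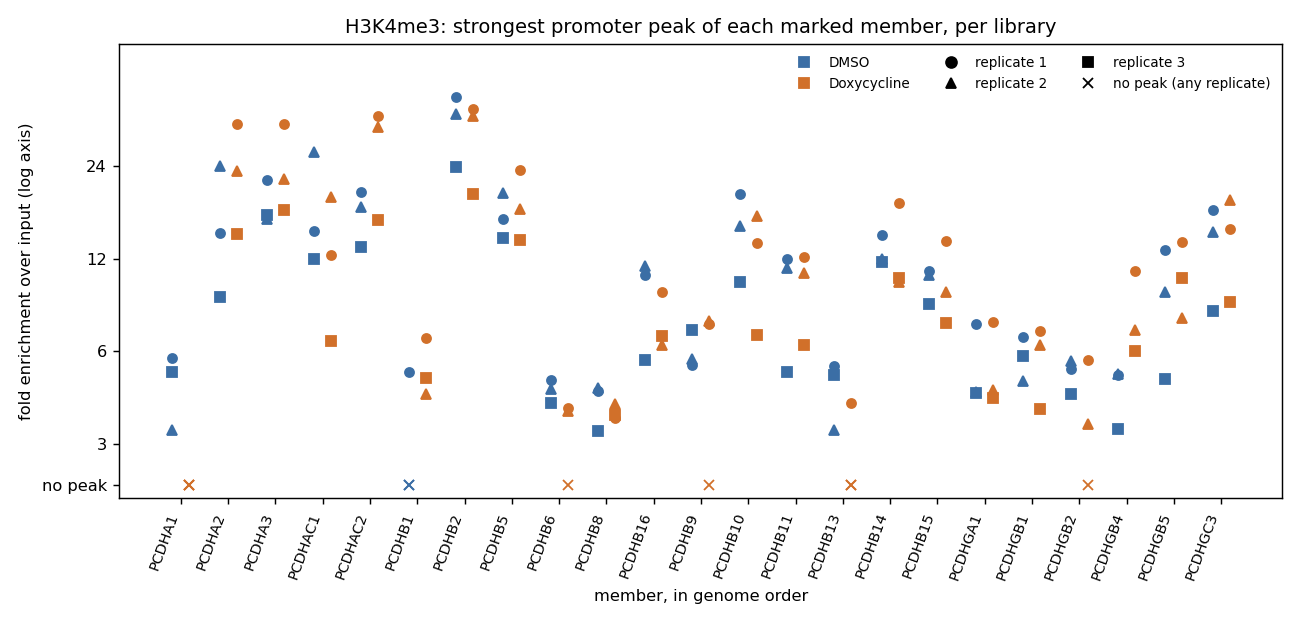
H3K4me3 fold enrichment over input (log axis) of the strongest promoter peak for the 23 members with a peak in at least 1 library, in genome order. Circles, triangles and squares are replicates 1, 2 and 3, blue for DMSO and orange for doxycycline, and a cross marks libraries without a peak (crosses of the same treatment overlap). PCDHB2 is highest at 19.5 to 40.4, and PCDHA1 has 3 blue points and no orange one.

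PCDHAC1, PCDHAC2 and PCDHGC3 were the 3 members that carried H3K4me1, H3K4me2, H3K4me3 and H3K27ac in DMSO, while the other C-type genes carried none. For PCDHGC3, the H3K4me1 in all 3 DMSO libraries was that of an internal start, as given below. PCDHAC2 carried H3K4me3 at 19.8, 17.7 and 13.1-fold in DMSO and 35.1, 32.2 and 16.1 in doxycycline, and H3K27ac at 4.06, 4.28 and 3.09 and then 7.29, 5.17 and 5.19. It also carried H3K4me2 (3.95 to 21.2) and H3K4me1 (2.13 to 3.10) in all 6 libraries. For H3K27ac each doxycycline value exceeded each DMSO value, as it did for 9.69% of all genes tested, and the median log2 difference of all genes without centring was 0.31. For H3K4me3 the ranges overlapped, with doxycycline higher in each of the 3 same-numbered pairs.

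PCDHAC1 carried H3K4me3 at 14.8, 26.8 and 12.0-fold in DMSO and at 12.4, 19.1 and 6.48 in doxycycline. Its H3K27ac was weaker, at 2.65, 2.59 and 1.91 in DMSO and 2.45 and 2.08 in doxycycline replicates 1 and 2, with no peak in replicate 3. Its H3K4me2 reached 34.0 in doxycycline replicate 1, against 9.97, 11.3 and 7.36 in DMSO and 9.07 and 11.2 in the other doxycycline libraries. That library also had the highest median H3K4me2 log2 fold enrichment over the genes tested, 4.37 against 2.68 to 3.71 in the others.

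PCDHGC3 has an annotated start at its variable exon and another near the last gamma constant exon. At the canonical start, H3K4me3 was 17.3, 14.7 and 8.11-fold in DMSO and 14.1, 18.7 and 8.68 in doxycycline. H3K27ac there was 3.22, 2.75 and 2.65, then 4.31, 4.07 and 3.29, which did not overlap, the doxycycline values being the higher, as they were at the strongest promoter peak of 9.69% of all genes tested. H3K4me1 was present there in 1 of 3 DMSO and 2 of 3 doxycycline libraries, so the H3K4me1 counted for this gene in all 6 libraries came from the internal start. PCDHGC4 had H3K4me1 in 2 of 3 libraries of each treatment (2.18 to 2.78-fold) and H3K27ac in 1 doxycycline library (2.35-fold), while PCDHGC5 had no peak in any list.

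Members with H3K4me3 carried H3K27ac, H3K4me2 and H3K4me1 less often than did all genes with H3K4me3. Of the 22 members with H3K4me3 in DMSO, 8 carried H3K27ac (36.4%), against 87.5% of the 14504 genes with H3K4me3. H3K4me2 was carried by 6 of 22 (27.3%, against 97.5%), H3K4me1 by 3 of 22 (13.6%, against 83.0%) and H3K27me3 by 2 of 22 (9.09%, against 15.3%). In doxycycline, H3K27ac was carried by 7 of 18 (38.9%, against 87.5%), H3K4me2 by 11 of 18 (61.1%, against 98.6%), H3K4me1 by 3 of 18 (16.7%, against 83.3%) and H3K27me3 by 2 of 18 (11.1%, against 16.7%). H3K4me3 as the only mark in 3 of 3 libraries was the commonest state among marked members in DMSO, at 11 of 53 (PCDHA1, PCDHB9, PCDHB10, PCDHB11, PCDHB13, PCDHB15, PCDHB16, PCDHGA1, PCDHGB1, PCDHGB2 and PCDHGB4). This state was held by 0.315% of all genes. In doxycycline it was held by 4 (0.19% of all genes). All of the 11 members had a peak of another mark in 1 or 2 DMSO libraries. H3K4me2 was found in 2 at PCDHB10, PCDHB15, PCDHB16 and PCDHGB1, and H3K27ac in 2 at PCDHB10, PCDHB11 and PCDHB15. These counts therefore rest on the 3 of 3 rule and on the H3K4me2 calls. Without replicate 3 the members with H3K4me2 in DMSO numbered 12 instead of 6.

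Because the members' H3K4me3 was weak, genes were also split at a median H3K4me3 fold of 10. Among genes with a median H3K4me3 fold under 10 in DMSO, 1 of 10 members carried H3K27ac, against 24.2% of 890 genes. H3K4me2 was carried by 0 of 10 (79.8%), H3K4me1 by 0 of 10 (80.2%) and H3K27me3 by 2 of 10 (65.2%). In doxycycline the numbers were 0 of 7 for H3K27ac (23.1% of 672 genes), 3 of 7 for H3K4me2 (86.8%), 0 of 7 for H3K4me1 (79.5%) and 2 of 7 for H3K27me3 (67.9%). Among genes with a fold of 10 or more, 7 of 12 members in DMSO and 7 of 11 in doxycycline carried H3K27ac, against 91.6% and 90.6% of genes. This class held 13614 of the 14504 genes with H3K4me3 in DMSO and 13759 of 14431 in doxycycline. It was therefore not matched to the members in strength.

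The 7 members with H3K27ac in all 6 libraries were PCDHA2, PCDHA3, PCDHAC2, PCDHB2, PCDHB5, PCDHGB5 and PCDHGC3. These were also among the 12 with the strongest H3K4me3. PCDHB2 had H3K27ac of 6.69, 5.40 and 4.58-fold in DMSO and 7.46, 5.46 and 3.86 in doxycycline. PCDHA3 had 5.13, 3.51 and 3.60, then 8.31, 5.04 and 4.98, and PCDHA2 had 4.34, 4.69 and 2.36, then 9.13, 5.96 and 4.59. Pooled ranges overlapped in each of these 3 genes, but PCDHA2 and PCDHA3 were higher in doxycycline in each of the 3 same-numbered pairs, before centring. So was the median H3K27ac log2 fold enrichment over all genes tested, at 3.29 against 2.87, 3.0 against 2.7 and 2.58 against 2.31. After centring, the log2 difference was 0.47 for PCDHA2 (limma adjusted p = 0.168) and 0.23 for PCDHA3 (limma adjusted p = 0.51).

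Polycomb's mark was carried by few promoters, all of them beta. H3K27me3 was present in 3 of 3 DMSO libraries at PCDHB1 (3.16 to 3.46-fold), PCDHB6 (2.26 to 2.69) and PCDHB8 (2.12 to 2.69), and in 3 of 3 doxycycline libraries at PCDHB1 (3.26 to 3.69) and PCDHB8 (1.98 to 2.89). PCDHB6 and PCDHB8 had H3K4me3 in 3 of 3 DMSO libraries too, at 4.08 to 4.86 and 3.32 to 4.56-fold. In bulk libraries, 2 marks at 1 promoter cannot be told apart from each mark in a different fraction of cells.

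Across the cluster, overlapping H3K27me3 peaks were merged over libraries, and merged regions with a peak from all 6 libraries numbered 5. Peaks of different libraries in one region need not share a position. The 5 regions lay just downstream of PCDHA1 (chr5:140787444-140790779), over PCDHB1 (chr5:141047140-141056903), between PCDHB1 and PCDHB2 (chr5:141071669-141083910), over the stretch from PCDHB7 to PCDHB8 (chr5:141173013-141180255) and between PCDHB14 and PCDHB15 at the pseudogene PCDHB19P (chr5:141239338-141243142). In the stretch from PCDHB7 to PCDHB8, the 1 kb bin with a peak in all 6 libraries was that of the PCDHB8 start. Within 1 kb of the PCDHB7 start, H3K27me3 was found in 0 of 3 DMSO and 2 of 3 doxycycline libraries. In the region at PCDHB19P, no 1 kb bin had a peak in all 3 DMSO libraries. Among the other 61 merged H3K27me3 regions, 41 were seen in a single library. No H3K27me3 region was found in all 6 libraries among the gamma genes or from PCDHA2 to PCDHA13. The H3K27me3 lists were unequal, however. Peaks covered 11.2 to 17.6 kb of the cluster in DMSO replicates 2 and 3 and doxycycline replicate 3, against 53.4 to 72.0 kb in the other libraries. Regions in all 6 libraries, and promoters in 3 of 3, can hold only what the lists with low coverage also hold.

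H3K4me3 also lay away from the canonical starts of members. In all 6 libraries, 6 such regions were found, and each had H3K4me2 and H3K27ac in all 6 libraries too. The first lay in the intron between the second and the third alpha constant exon (chr5:141001171-141002667), 7.0 kb before the latter, with no annotated start within 1 kb. There H3K4me3 was 24.4, 17.6 and 16.9-fold in DMSO and 17.9, 22.8 and 8.01 in doxycycline, and H3K27ac was 6.50, 4.79 and 4.99, then 8.30, 8.09 and 6.07.

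The second lay 29.8 kb beyond the last alpha constant exon (chr5:141039706-141041285), between PCDHAC2 and PCDHB1, at the start of an unnamed non-coding gene. H3K4me3 was 30.2, 31.7 and 21.2-fold in DMSO and 27.5, 24.5 and 15.4 in doxycycline, and H3K27ac was 9.10, 7.59 and 6.42, then 9.51, 8.29 and 6.54. Enhancers that act on alpha promoters in neural tissue are known in an alpha constant intron and downstream of the alpha constant exons, but whether these regions are those elements was not tested.

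Another lay between PCDHB1 and PCDHB2, inside the antisense gene PCDHB1-AS1 (chr5:141084535-141085525), with H3K4me3 of 18.5, 17.3 and 10.1 in DMSO and 24.8, 22.8 and 14.5 in doxycycline. Its H3K27ac was weaker, at 2.16 to 4.60-fold. It followed directly on the H3K27me3 region between the same genes. The promoter of TAF7, a general transcription factor gene between the beta and gamma rows, was also among the 6 (chr5:141319265-141321644). Its H3K4me3 was 26.4, 39.2 and 17.2-fold in DMSO and 31.6 and 24.8 in doxycycline replicates 2 and 3, doxycycline replicate 1 being the highest and above every value of PCDHB2.

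The remaining pair framed the last gamma constant exon. One lay between the second and the third gamma constant exon, at the internal start of PCDHGC3 (chr5:141508283-141509632), with H3K4me3 of 9.75, 14.4 and 4.60, then 15.0, 7.49 and 6.31. The other ran across the end of the cluster (chr5:141512254-141514884), with 19.1 and 8.98-fold in DMSO replicates 1 and 3 and 29.7, 26.4 and 13.3 in doxycycline, DMSO replicate 2 being the highest of the 6 libraries. A single merged H3K27ac region, chr5:141505309-141529528, held both, at 5.86 to 12.6-fold, and also reached the start of the neighbouring gene DIAPH1.

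**Figure D4:**
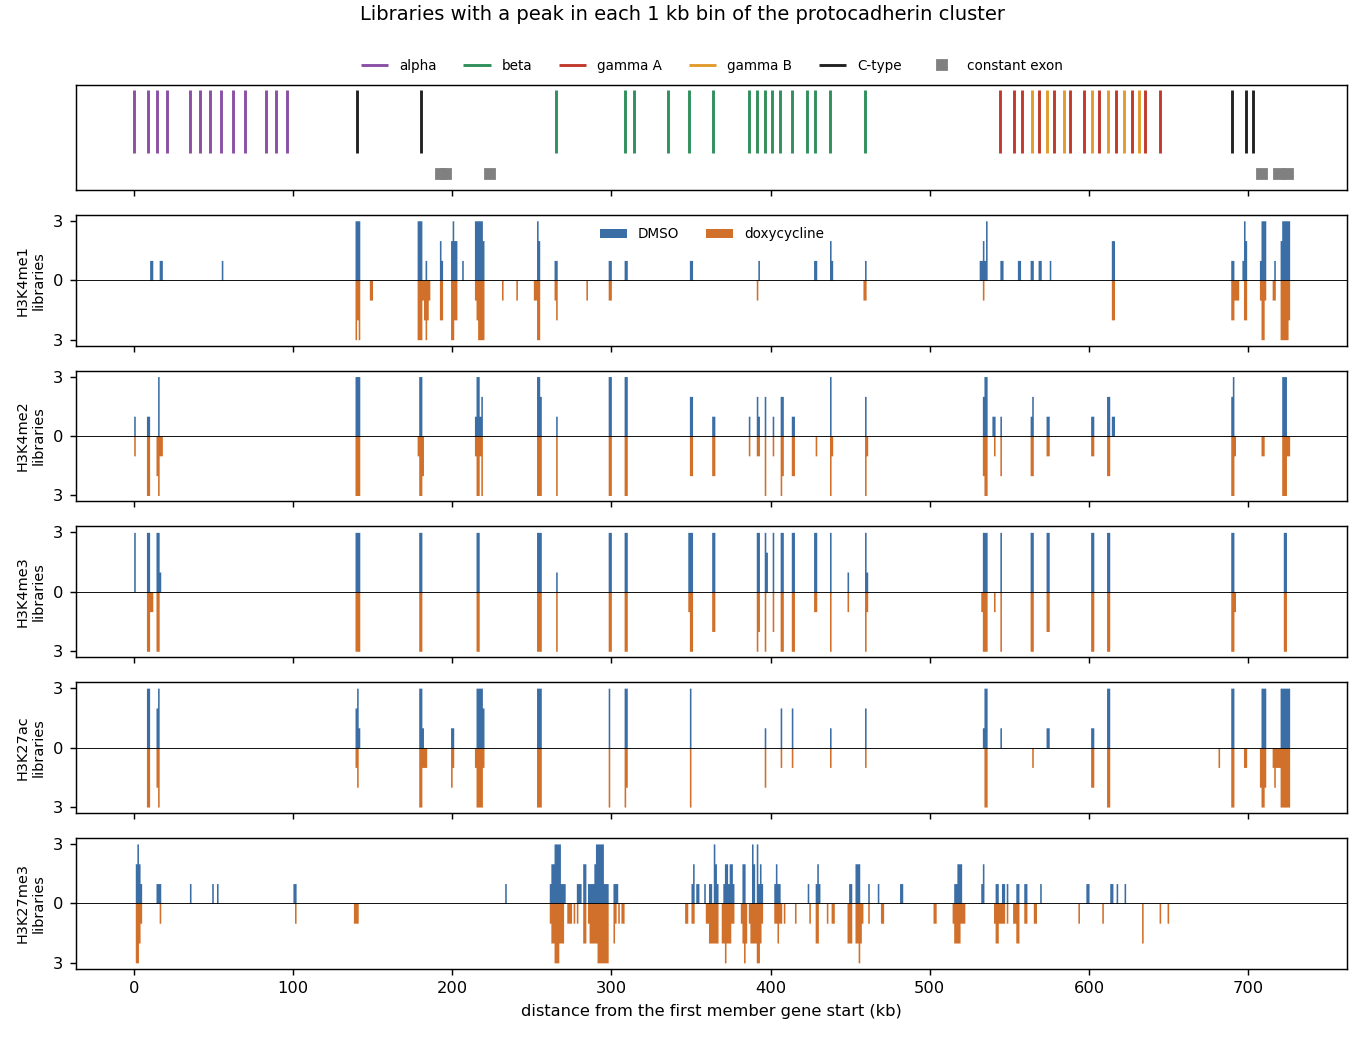
Number of libraries (0 to 3) with a peak in each 1 kb bin across the cluster, drawn upward for DMSO (blue) and downward for doxycycline (orange), against distance in kb from the first member gene start, with member starts coloured by subcluster and constant exons as grey squares in the top panel. H3K4me3 forms narrow spikes at 23 canonical member starts and, in all 6 libraries, at 6 other places, and the stretch of unmarked alpha starts has none.

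Effects of doxycycline were examined first by presence. A promoter was said to separate the treatments where 3 of 3 libraries of one treatment and 0 of 3 of the other had a peak. PCDHA1 was the only member that did so in any mark, losing H3K4me3, against 0.0751% of all genes (15 of 19970) that lost H3K4me3 and 0.0551% (11) that gained it. In DMSO its peak had a fold enrichment of 5.72, 3.34 and 5.13 and a −log10 q of 22.9, 7.02 and 15.1, and no list had a peak there in doxycycline. These are weak values, between the 0.489th and the 3.48th percentile of marked promoters in their lists. When the 6 lists were cut to the length of the shortest, PCDHA1 no longer separated the treatments (0 members). H3K4me2 was called there in replicate 1 of both treatments (4.46 and 2.53-fold).

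No member separated the treatments in H3K4me1 (0.19% of genes lost and 0.125% gained it), H3K4me2 (0.0% and 0.03%), H3K27ac (0.22% and 0.11%) or H3K27me3 (0.0% and 0.19%). The design of 3 libraries against 3 cannot give an exact two-sided permutation p under 0.1 for one promoter.

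Other members changed in some libraries only. PCDHB1, which is set apart at the start of the beta row, had H3K4me3 in DMSO replicate 1 alone (5.13-fold) and in 3 of 3 doxycycline libraries (6.63, 4.35 and 4.93). Its H3K4me2 was likewise found in DMSO replicate 1 (5.60) and in 3 of 3 doxycycline libraries (11.9, 3.24 and 4.39), while its H3K27me3 was present throughout. PCDHB13 went the other way in H3K4me3, from 3 of 3 DMSO libraries (5.40, 3.33 and 5.02) to doxycycline replicate 1 alone (4.07), and PCDHB6, PCDHB9 and PCDHGB2 were without a peak in doxycycline replicate 3. For H3K4me3, 1 member was found in more doxycycline than DMSO libraries (1.0% of all genes) and 5 in fewer (1.35%). For H3K4me2, 9 were found in more (5.05%) and 1 in fewer (1.41%).

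In H3K4me2 the 9 were PCDHA2, PCDHB1, PCDHB6, PCDHB10, PCDHB11, PCDHB13, PCDHB15, PCDHB16 and PCDHGA1. DMSO replicate 3 had the fewest members with H3K4me2, 7, whereas DMSO replicate 1 and doxycycline replicate 1 both had 23 and replicate 2 of both treatments had 12. Without replicate 3, 12 members carried H3K4me2 in each treatment, so the difference between 6 and 11 rested on replicate 3. For H3K4me1, 1 member was in more and 9 in fewer doxycycline libraries (7.55% and 9.07% of genes). For H3K27ac these were 4 and 6 (2.3% and 3.74%), and for H3K27me3 6 and 7 (8.19% and 4.37%).

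The strength of promoter peaks was compared with limma, which was fitted over all protein-coding genes with a peak in all 6 libraries, each library being centred on its median. No member passed an adjusted p of 0.05 in any mark. For H3K4me3, 17 members were tested, and 0.0% of 14349 genes were called higher and 0.0% lower in doxycycline. For H3K27ac, 7 members were tested, and 0.491% of 12827 genes were called higher and 0.858% lower. H3K4me2 (6 members), H3K4me1 (3 members) and H3K27me3 (2 members) had 0.0% of 14338, 0.0244% of 12270 and 0.0% of 4011 genes called higher and 0.0% called lower in each. At an unadjusted p under 0.05 there were 4 members for H3K4me3 (14.0% of genes), 2 for H3K27ac (15.7%), 1 for H3K4me2 (9.65%), 0 for H3K4me1 (8.92%) and 0 for H3K27me3 (4.06%).

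The member with the largest H3K4me3 difference was PCDHGB4, at 5.03, 5.08 and 3.37-fold in DMSO and 11.0, 7.03 and 6.01 in doxycycline. These ranges did not overlap, as held in this direction for 1.15% of genes tested, and the log2 difference (doxycycline minus DMSO, centred) was 0.80 ± 0.26 (SE; limma adjusted p = 0.189). PCDHAC2 had a log2 difference of 0.65 ± 0.21 (limma adjusted p = 0.184), PCDHA2 of 0.59 ± 0.23 (limma adjusted p = 0.268) and PCDHAC1 of -0.55 ± 0.25 (limma adjusted p = 0.343). Over the 17 members the median H3K4me3 log2 difference was -0.01, with 8 above and 9 below 0, against a median of 0.02 over all genes tested.

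For H3K27ac, PCDHA2 had a log2 difference of 0.47 ± 0.16 (limma adjusted p = 0.168) and PCDHB2 of -0.35 ± 0.13 (limma adjusted p = 0.196). The median over the 7 members was 0.03, against -0.02 over all genes. By the strongest promoter peak of each gene, PCDHAC2 was the single member with each doxycycline H3K27ac value above each DMSO value, as were 9.69% of genes tested. For H3K4me2, PCDHAC2 had 0.54 ± 0.23 (limma adjusted p = 0.477). Without replicate 2, PCDHA2 and PCDHGB4 passed for H3K4me3 and PCDHA2 for H3K27ac, but 2602 and 462 genes then did so. When the pileup replaced the fold enrichment, PCDHA2 H3K27ac, PCDHAC2 H3K4me2 and PCDHAC1 H3K4me3 changed sign.

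The length of the cluster under peaks was compared as 1 value per library. H3K4me3 covered 26.1, 25.0 and 22.7 kb in DMSO and 26.5, 25.2 and 21.5 kb in doxycycline, a log2 difference of -0.01 (exact permutation p = 1.0, two-sided over 20 assignments; adjusted over the 5 marks 1.0). For H3K27ac the covered length was 22.8 ± 3.6 kb in DMSO and 26.0 ± 3.6 kb in doxycycline (SD, n = 3), and by the exact permutation test the log2 difference of 0.20 had p = 0.3 (1.0 after adjustment), with doxycycline higher in 3 of 3 same-numbered pairs (exact p = 0.25 over pairs, the smallest that 3 pairs allow). H3K4me2 covered 11.9 to 30.2 kb in DMSO and 16.9 to 29.2 kb in doxycycline, with a log2 difference of 0.22 and an exact p of 0.8 (1.0 after adjustment). H3K4me1 covered 25.6 ± 6.0 and 24.4 ± 5.9 kb (SD, n = 3), with a log2 difference of -0.06 and an exact p of 1.0 (1.0 after adjustment). In no mark was the difference of the means larger than the SD of either treatment. The smallest p this test allows is 0.1, and the labels do not say whether replicates were separate cultures, so each p measures the spread between these libraries only.

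H3K27me3 covered 58.5, 11.2 and 17.6 kb in DMSO and 72.0, 53.4 and 11.7 kb in doxycycline, with a log2 difference of 0.66 and an exact p of 0.7 (1.0 after adjustment). Coverage went with the peak caller's estimate of fragment length. It was 58.5 kb in DMSO and 72.0 and 53.4 kb in doxycycline for libraries with an estimate of 256 to 280 bp, and 11.2 and 17.6 kb in DMSO and 11.7 kb in doxycycline for those with 105 to 112 bp. Without replicate 2, the log2 difference was -0.14.

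**Figure D5:**
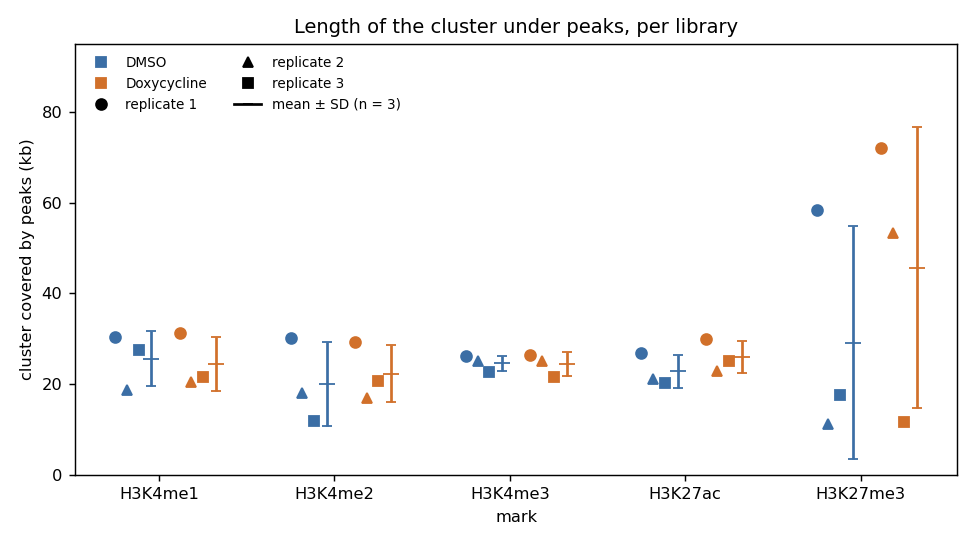
Length of the cluster covered by peaks in kb, on a linear axis, for each mark, with circles, triangles and squares for replicates 1, 2 and 3 in DMSO (blue) and doxycycline (orange) and bars for mean ± SD (n = 3). Treatments overlap for every mark, and H3K27me3 splits into libraries near 11.2 to 17.6 kb and libraries at 53.4 to 72.0 kb.

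Genes that act on protocadherin promoters were marked in KELLY cells. All 26 regulators listed (CTCF, cohesin and its loaders, SMCHD1, DNA methyltransferases and TET enzymes, SETDB1 and other repressors) carried H3K4me3 in both treatments, and 26 carried H3K27ac in DMSO and 25 in doxycycline, REST having it in 2 of 3 doxycycline libraries. None of the 26 tested for H3K4me3 or the 25 for H3K27ac was called by limma.

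The 12 non-clustered protocadherins, which are single genes with promoters of their own, carried H3K4me3 in 11 cases in both treatments, PCDH11X being the one without. H3K27ac was carried by 9 in DMSO and 8 in doxycycline. PCDH15 had lower H3K27ac in doxycycline (log2 difference -0.92, limma adjusted p = 0.00514), a call lost without centring (-0.59, limma adjusted p = 0.661) and without replicate 1 (-0.90, limma adjusted p = 0.168). No other was called in any mark. Of the 17 neighbouring protein-coding genes within 200 kb, 13 carried H3K4me3 and 13 carried H3K27ac in each treatment, 0 carried H3K27me3 and 0 were called by limma.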

How the data were processed

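ChIP-seq peak lists of KELLY cells were analysed, 30 lists from 34 labelled samples (4 inputs have no list). The authors aligned reads to hg38 with Bowtie2, kept alignments of mapping quality 30 or more, and called peaks per library against an input with MACS2 2.1.1.20160309. Per the file headers, 18 lists (H3K4me1, H3K27ac, H3K27me3) used the broad setting (q 0.05, linking at q 0.1), and 12 (H3K4me2, H3K4me3) the narrow one (p 1e-5). The inputs of replicates 1 and 3 have equal read totals per treatment and may be 1 library. The deposited pileup is fragment coverage (signal). Significance was deposited as −log10 of the p-value and of the q-value by the authors, and the deposited fold enrichment is a ratio to the local input. All depend on depth and input, so weak peaks can be lost in the shallower doxycycline lists.

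Members, gene lists and tests were chosen with earlier results of these data known. Annotation was GENCODE release 44 (hg38). Members with H3K4me3 were named with their values where they ranked in the first 12 by median fold enrichment, were C-type, separated the treatments or were called. A few others (PCDHB1, PCDHB6, PCDHB8, PCDHB13 and PCDHGB4) were named after their values had been seen. Log2 fold enrichment, median-centred, was tested with limma 3.58.1 (R 4.3.3) with Benjamini-Hochberg adjustment. It was tested on simulated data, as were the overlap functions. Covered length used exact permutation (python 3.11.15, numpy 2.4.6, pandas 2.3.3). Same-numbered libraries deviated together over genes in H3K4me1 (correlations of 0.171 to 0.345), H3K4me3 (0.158 to 0.176) and H3K27ac (0.209 to 0.378), but not in all pairs of H3K4me2 (-0.0455 to 0.149) or H3K27me3 (-0.00115 to 0.710). Alternatives were other windows, thresholds, list lengths, scalings, the pileup, a replicate block and leaving out replicates.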

Additional observations from a re-analysis of the deposited data

How the results depend on the processing

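Of 100 alternative counts of members carrying a mark, 78 stayed within 1.5 times. With peaks of q 0.001 or less, H3K4me1 fell to 1 member in each treatment and H3K27me3 to 0 in DMSO and 1 in doxycycline. Demanding 2 of 3 libraries gave 5 and 5 for H3K4me1, 13 and 17 for H3K4me2 and 5 for H3K27me3 in doxycycline. With peaks covering at least 500 bp, H3K4me3 in DMSO fell to 12, H3K27ac in DMSO to 5, H3K4me2 in doxycycline to 5 and H3K27me3 to 1 and 1. A 2.5 kb window gave 5 and 5 for H3K27me3, and lists of equal length 1 and 1. Leaving out a replicate gave 3 to 5 for H3K4me1 in each treatment (5 without replicate 2), 6 to 12 for H3K4me2 in DMSO and 2 to 5 for H3K27me3 in doxycycline (the highest without replicate 3). Lists of equal length left 0 members separating the treatments in H3K4me3, while the other 4 settings gave 1, PCDHA1. The log2 difference in covered length was 0.10 for H3K4me1 with lists of equal length. Leaving out a replicate gave -0.16 to 0.08 for H3K4me1, -0.07 to 0.38 for H3K4me2, -0.03 to 0.02 for H3K4me3 and -0.14 to 1.28 for H3K27me3, so no direction of covered length held in these marks. The cause of these changes was not tested.

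Members called by limma numbered 0 to 2 for H3K4me3 and 0 to 1 for H3K27ac on leaving out a replicate, and 0 under the other alternatives. Without replicate 2, PCDHA2 reached a limma adjusted p of 0.0196 (H3K4me3, log2 difference 0.87) and 0.0485 (H3K27ac, 0.67) and PCDHGB4 of 0.0273 (H3K4me3, 0.92). With the pileup, the log2 difference was -0.09 for PCDHA2 H3K27ac, -0.08 for PCDHAC2 H3K4me2 and 0.17 for PCDHAC1 H3K4me3. Over all genes, limma called 173 for H3K27ac, but 25 without centring, 327 with the pileup, 345 with the replicate block, and 6 to 462 on leaving out a replicate. For H3K4me3 it called 0, but 182 with the pileup and 2602 without replicate 2, and for H3K4me1 it called 3, but 8 with the pileup, 1 with no centring or quantile normalisation, 0 with peaks of q 0.001 or less and 0 to 209 on leaving out a replicate. Without centring, the median log2 difference of all genes was 0.13 for H3K4me1, 0.46 for H3K4me2 and 0.31 for H3K27ac. The replicate block changed no call among the members, and covered length with this pairing had an exact p of 0.25 for H3K27ac, the smallest it allows. Peak lists show only what passed the caller's threshold, so a missing peak does not show that a mark is absent.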
